A study of Homo sapiens with 6 samples.

Results

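Chromosome 13 was represented by 1715 transcript cluster probe sets, of 67528 in the array table that measure whole transcripts. All probe sets whose identifier assigns them to chromosome 13 were taken, whether or not they carried a gene name. Of them, 583 carried 1 gene symbol, 21 carried several symbols and 1111 carried none. The chromosome was singled out because its probe sets differed between SND1 knockdown and vector control arrays. The differences below are therefore a description of that contrast, with no test drawn on for them.

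The arrays came from SKOV3, an established human ovarian carcinoma cell line. The 3 SND1 knockdown arrays carried RNA of a stable line made with hairpin number 2 against SND1 in the pLKO vector. The 3 vector control arrays carried RNA of a stable line with the pLKO vector alone. Both lines were kept untreated in McCoy's 5A with 10% serum, and each array took label made with 6 µg of RNA. Only 1 hairpin was used, the label of the first knockdown array carries an additional number 5 of unstated meaning, and nothing says that the arrays of a line came from separate cultures. The spread within a group may therefore be technical, and hairpin and line cannot be told apart. SND1 encodes a nuclease-fold and tudor-domain protein that takes part in transcription, splicing and RNA turnover.

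Human chromosome 13 is acrocentric, with ribosomal RNA gene arrays on its short arm and a long arm that is poor in genes for its size. Its long arm carries the retinoblastoma gene RB1, the DLEU2 transcript that hosts miR-15a and miR-16, and the MIR17HG transcript that hosts the miR-17-92 cluster. Loss and gain of stretches of this arm are common in carcinomas and in lymphoid tumours, where RB1 and the miRNA hosts are among the best known genes.

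The mature miRNAs of both hosts are shown because they are the best known small RNA products of the chromosome. Their sequences come from RefSeq annotation on GRCh38.p14, and capitals mark the seed, bases 2 to 8. The miR-17-92 arms lie on the plus strand of chromosome 13, where miR-17-5p occupies chr13:91350618-91350640 and miR-92a-3p chr13:91351361-91351382. The other pair lies on the minus strand, with miR-15a-5p at chr13:50049167-50049188 and miR-16-5p at chr13:50049027-50049048. The 8 arms shown fall into 5 seed groups. The arms miR-17-5p and miR-20a-5p share 1 seed, miR-19a-3p and miR-19b-3p share another, and miR-15a-5p and miR-16-5p share a further one, while miR-18a-5p and miR-92a-3p each have their own. The probe sets measured the host transcripts and not these mature arms.
hsa-miR-17-5p: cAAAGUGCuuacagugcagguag
hsa-miR-20a-5p: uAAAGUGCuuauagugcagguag
hsa-miR-18a-5p: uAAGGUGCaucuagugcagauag
hsa-miR-19a-3p: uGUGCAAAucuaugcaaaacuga
hsa-miR-19b-3p: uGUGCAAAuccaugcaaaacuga
hsa-miR-92a-3p: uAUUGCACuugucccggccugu
hsa-miR-15a-5p: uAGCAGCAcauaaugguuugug
hsa-miR-16-5p: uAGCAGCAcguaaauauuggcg

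Promoter windows are shown for genes with large differences in either direction and for those with a divergently transcribed partner. Each holds 300 bases, from 250 before to 50 after the annotated RefSeq start on GRCh38.p14, written in the gene's own direction. Capitals mark CAGGTG or its reverse complement CACCTG, the E-box letters that Snail and ZEB factors bind.
GAS6 promoter, chr13:113864027-113864326, minus strand: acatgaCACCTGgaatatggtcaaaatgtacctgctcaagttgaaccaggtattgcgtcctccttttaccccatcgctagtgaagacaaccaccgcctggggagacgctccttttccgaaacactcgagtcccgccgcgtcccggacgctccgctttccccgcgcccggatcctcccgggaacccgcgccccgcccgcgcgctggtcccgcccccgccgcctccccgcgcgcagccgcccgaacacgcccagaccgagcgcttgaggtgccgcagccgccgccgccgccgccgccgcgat
DNAJC3 promoter, chr13:95676889-95677188, plus strand: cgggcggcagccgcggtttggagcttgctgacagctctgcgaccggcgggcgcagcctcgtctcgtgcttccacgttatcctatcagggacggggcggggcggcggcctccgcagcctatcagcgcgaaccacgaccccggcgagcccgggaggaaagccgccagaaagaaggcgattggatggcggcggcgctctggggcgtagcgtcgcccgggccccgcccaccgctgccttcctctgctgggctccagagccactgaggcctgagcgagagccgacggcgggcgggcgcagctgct
SLC15A1 promoter, chr13:98752623-98752922, minus strand: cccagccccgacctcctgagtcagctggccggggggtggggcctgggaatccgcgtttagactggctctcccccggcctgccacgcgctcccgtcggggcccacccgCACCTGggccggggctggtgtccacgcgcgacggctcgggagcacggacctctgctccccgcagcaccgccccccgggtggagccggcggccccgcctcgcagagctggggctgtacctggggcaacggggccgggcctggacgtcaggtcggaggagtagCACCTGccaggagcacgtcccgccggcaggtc
FOXO1 promoter, chr13:40666592-40666891, minus strand: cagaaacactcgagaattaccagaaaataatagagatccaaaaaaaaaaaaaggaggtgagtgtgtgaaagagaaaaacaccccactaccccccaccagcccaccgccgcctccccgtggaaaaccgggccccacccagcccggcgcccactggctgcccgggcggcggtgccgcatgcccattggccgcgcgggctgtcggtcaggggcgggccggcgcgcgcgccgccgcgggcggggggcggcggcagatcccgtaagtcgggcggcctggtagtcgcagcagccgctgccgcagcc

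GAS6 encodes a secreted ligand of the TAM receptor kinases, and its window held 1 such E-box and 42 CpG dinucleotides. DNAJC3 encodes a chaperone of the endoplasmic reticulum that restrains the kinase PERK, and its window held 0 E-boxes and 39 CpG dinucleotides. SLC15A1, an intestinal-type peptide transporter, had 2 E-boxes and 31 CpG dinucleotides. FOXO1, a forkhead factor that acts downstream of insulin and AKT signalling, had 0 E-boxes and 33 CpG dinucleotides. Of all 35116 RefSeq promoter windows, 20.6% held the E-box letters. Of the 572 different symbols on chromosome 13, 366 had a window, and 72 of these, or 19.7%, held the letters. A match is a description of the letters and not of a bound site.

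SND1, which lies on another chromosome, was lower in the knockdown arrays. Its log2 level was 5.88, 5.70 and 5.99 in SND1 knockdown arrays, against 8.83, 8.60 and 8.80 in vector control arrays. The difference was -2.89 ± 0.10 (SE, limma adjusted p = 1.0e-05), at least 5.51-fold lower, on a probe set that SND1-IT1 shares. Markers of epithelium were present in both lines, with 7 of 8 above the background range in knockdown and in vector control arrays (EPCAM, CDH1, KRT8, KRT18, KRT19, KRT7 and CLDN3). Of 6 measured ovarian carcinoma markers 4 lay above it in knockdown arrays (PAX8, MSLN, FOLR1 and SOX17) and 5 in vector control arrays, where MUC16 was added. No measured marker of fibroblasts, endothelium, blood or neurons lay above that range in either line. The summed log2 level of the 8 epithelial markers was 87.7 to 88.3 in knockdown arrays and 82.1 to 82.8 in vector control arrays. The sum over 6 ovarian carcinoma markers was 43.0 to 43.6 in knockdown arrays and 46.2 to 46.7 in vector control arrays, and that over 5 fibroblast markers, all within the background range, 21.5 to 22.2 in knockdown arrays and 20.2 to 20.7 in vector control arrays. Their part in the values below was not tested. Across probe sets, Pearson's r was 0.9953 to 0.9967 within a group and 0.9846 to 0.9868 between groups.

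Throughout, a level is a log2 value and a difference is the mean of the 3 knockdown arrays minus the mean of the 3 vector control arrays, on the log2 scale. The means of 23 background control probe sets ran up to 6.28, with a median of 3.11. A probe set is called above background where its mean over all 6 arrays exceeds 6.28. A fold is written "at least" where the lower group's mean did not exceed 6.28, and none is given where neither mean did. In bulk RNA, fewer cells with a transcript and less of it per cell cannot be told apart.

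Among transcript cluster probe sets bright enough to measure, chromosome 13 was mostly higher in the knockdown cells, by about 1.27-fold at the median. This was not seen in 16 bright probe sets for single exons and exon junctions, of which 8 were higher. They are too few to speak for the chromosome. Among the named probe sets, 186 of 583 lay above background, and their median difference was 0.35, with quartiles of 0.13 and 0.69. Of these 186, 151 were higher in the knockdown arrays. Among the unnamed probe sets, 115 of 1111 lay above background, with a median difference of 0.33, quartiles of 0.02 and 0.72, and 89 higher in the knockdown arrays. A further 9 of the 21 probe sets with several symbols lay above background, with a median of 0.66, and 8 of them were higher. A member can pass this filter through the brighter group alone, so these medians describe the bright members and not the chromosome's whole set. The filter was also chosen after seeing the data. Over all 583 named probe sets the median difference was 0.05, and over all 1111 unnamed ones 0.03. Over those brighter than the median of all transcript cluster probe sets, it was 0.18 in named and 0.16 in unnamed ones.

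The same levels outside chromosomes 13 and 14 gave medians near 0. There, 8709 named probe sets above background had a median difference of 0.03, with 53.9% above 0, and 5801 unnamed ones had 0.06, with 57.1% above 0. Of the 23 chromosomes compared, chromosome 13 had the highest median in named and in unnamed probe sets above background. The next in the named probe sets were chromosome 2 at 0.16 and chromosome 6 at 0.16. Chromosome 14 lay at the other end, at -0.35 over 283 named and -0.17 over 186 unnamed probe sets, with 14.5% of the named ones above 0. The next lowest in the named probe sets were chromosome 22 at -0.167, chromosome 19 at -0.135 and chromosome 11 at -0.111. No test of these ranks is given, because the chromosome was chosen on them.

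The 3 knockdown arrays shared the offset, and the 3 vector control arrays lay close to their own mean. Set against the mean of the vector control arrays, the median over the 186 named probe sets above background was 0.34, 0.38 and 0.35 in the knockdown arrays, against 0.01, 0.00 and 0.00 in the vector control arrays. The 115 unnamed ones had medians of 0.38, 0.32 and 0.35 in the knockdown arrays, against -0.02, 0.02 and 0.00 in the vector control arrays. The groups did not overlap in either class. A vector control array is part of its own reference here. Set against the other vector control arrays alone, the vector control medians were 0.012, 0.001 and -0.005 in the named and -0.022, 0.026 and 0.000 in the unnamed ones. Each of the 9 pairs of 1 knockdown and 1 vector control array gave a positive median, of 0.33 to 0.39 in the named and 0.29 to 0.44 in the unnamed probe sets. The pairs share the same 6 arrays and are not independent. Outside chromosomes 13 and 14 the unnamed probe sets had medians of 0.14, 0.01 and 0.05 in the knockdown arrays, so the first knockdown array was the highest of them there.

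**Figure D1:**
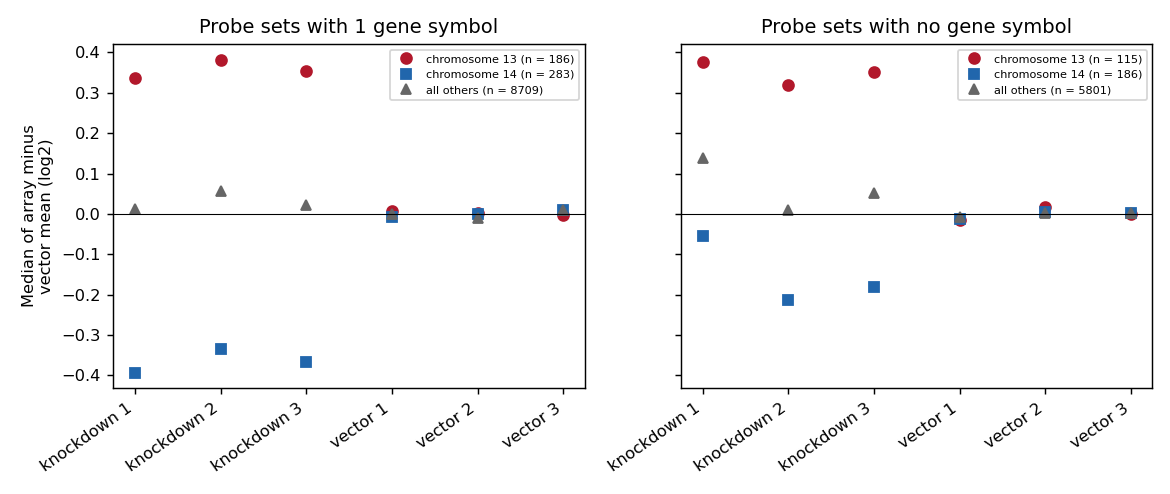
Median of each array minus the vector control mean (log2), over probe sets above background, with the 3 SND1 knockdown arrays left of the 3 vector control arrays. Red circles stand for chromosome 13, blue squares for chromosome 14 and grey triangles for all other chromosomes, and the chromosome 13 medians of the knockdown arrays lie between 0.32 and 0.38 in both panels.

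The difference was found in the brighter probe sets. Named probe sets of chromosome 13 with a mean level below 4.11, the median of all transcript cluster probe sets, had a median difference of 0.00 over 257 probe sets, and the 140 between 4.11 and 6.28 had 0.00. The 56 between 6.28 and 8 had 0.33, the 75 between 8 and 10 had 0.35, and the 55 above 10 had 0.35. Above background the named medians of the 3 bins lay close together. Unnamed probe sets had 0.01 over the 723 below 4.11, 0.12 over 273, 0.31 over 40, 0.35 over 34 and 0.33 over the 41 above 10. In the same bins outside chromosomes 13 and 14 the highest median was 0.08, in unnamed probe sets. The median spread within a group (SD over 3 arrays) was also taken over named probe sets brighter than 4.11. It was 0.09 over the 326 of chromosome 13 and 0.08 over the 14204 outside chromosomes 13 and 14.

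**Figure D2:**
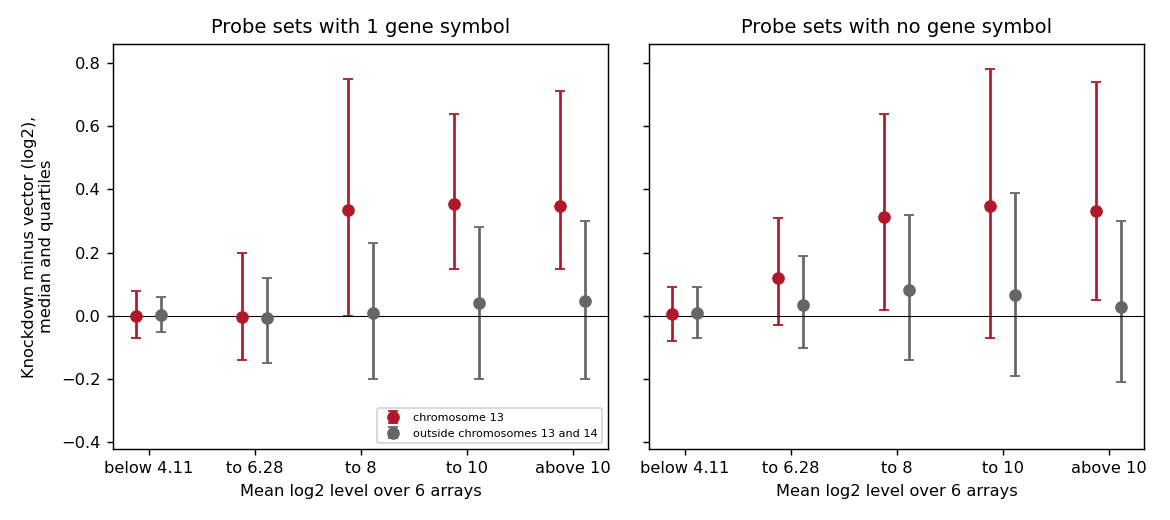
Median difference (SND1 knockdown minus vector control, log2) with quartiles as bars, against the mean log2 level over 6 arrays, for named probe sets on the left and unnamed ones on the right. Red is chromosome 13 and grey is all chromosomes other than 13 and 14, and the red medians stand at 0.31 to 0.35 in the 3 brightest bins of both panels.

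Calls made by limma over all 67528 probe sets, at a Benjamini-Hochberg adjusted p of 0.05, are given beside their background, here and for each gene list below, and nothing is read from them because the chromosome was chosen on this contrast. Of the 583 named probe sets 127 were called higher and 35 lower, where 11.9% and 11.6% of all probe sets with 1 symbol were called higher and lower. Of the 1111 unnamed ones 108 were called higher and 21 lower, against a background of 5.24% and 3.62%. Of the 21 with several symbols 9 were called higher and 0 lower, against 10.4% and 9.14%. The 3 knockdown arrays lay wholly above the vector control arrays in 181 named probe sets and wholly below them in 65, where 21.8% and 21.6% of all probe sets with 1 symbol did so. The same held for 188 and 81 unnamed probe sets, where 12.6% and 9.31% of all unnamed probe sets did so, and for 14 and 1 with several symbols, where 23.0% and 19.6% did so. Among members above background, 106 named ones were called higher and 14 lower, or 57.0% and 7.53%, against 23.8% and 19.5% of all such probe sets, and 51 and 9 unnamed ones, against 19.3% and 12.6%. The groups did not overlap in 133 named members that were higher and 20 that were lower, against 37.2% and 31.5%, and in 64 and 12 unnamed ones, against 28.5% and 19.8%.

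The offset was spread along the chromosome. The 581 named probe sets that could be ordered by RefSeq gene order were cut into 29 blocks of 20, the last of 21. Over the probe sets above background, 3 to 11 per block, the median difference was above 0 in 28 of the 29 blocks. In 25 of the 29, over the same probe sets, every knockdown array had a higher block median than every vector control array. Each vector control array is part of the mean it was set against, which pulls its block median towards 0. The count is thus a description only. Over all named probe sets, dim ones included, the block median was above 0 in 23 blocks. The highest block, from ARHGEF7-AS1 to CUL4A, had a median of 0.68 over 4 probe sets. The block below 0 ran from MIR622 to RNU6-62P, with a median of -0.22 over 3 probe sets. Low values were also found from TNFSF13B to ARHGEF7 (0.01), from CDADC1 to GUCY1B2 (0.05) and from TEX30 to ABHD13 (0.08).

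The ordered probe sets above background were also cut into 3 stretches. The proximal one, from MPHOSPH8 to MRPS31, had a median difference of 0.51 over 61 probe sets, with 51 above 0. The middle one, from ELF1 to KLF5, had 0.35 over 61, with 54 above 0. The distal one, from FABP5P1 to CHAMP1, had 0.23 over 63, with 46 above 0. The medians thus stepped down along the arm, while each stretch kept most of its members above 0. The longest run of neighbours that were all higher in the knockdown arrays, among named probe sets brighter than 4.11, held 16 probe sets, from GTF2IP3 to SAP18.

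Unnamed probe sets could be placed only in part, by the order of their identifiers between named neighbours. That placed 296 of the 1111, while 815 carried identifiers beyond the ordered ranges. Among placed ones brighter than 4.11, the block median was above 0 in 21 of 28 blocks, and it ran from -0.19 to 0.69. Across blocks, medians of named and unnamed probe sets brighter than 4.11 had a Pearson's r of -0.41 and a Spearman's rho of -0.32. This is a description over blocks that share the same 6 arrays. The unnamed block medians rested on 1 to 11 probe sets each, too few to say whether both classes run together along the arm.

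**Figure D3:**
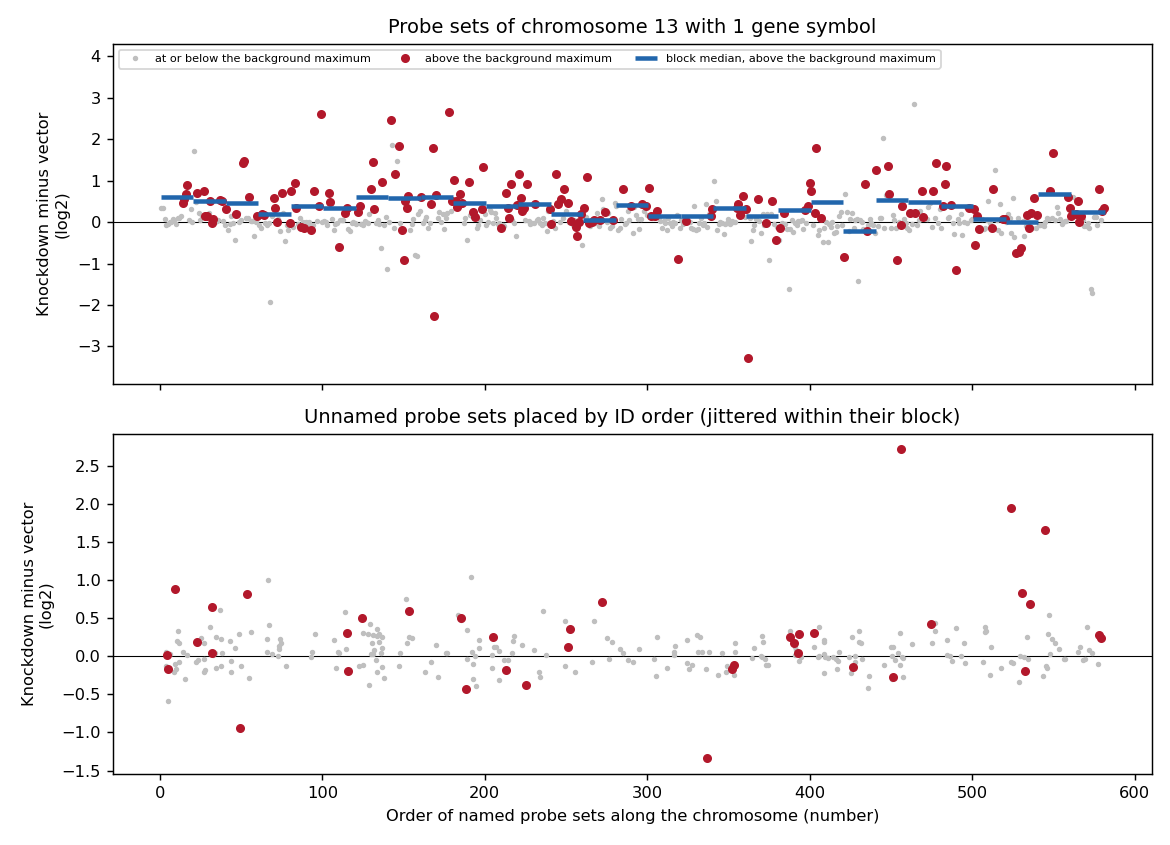
Difference of each probe set (SND1 knockdown minus vector control, log2) in the order of named probe sets along chromosome 13, with named probe sets above and the 296 placed unnamed ones below. Red points lie above background, grey points at or below it, and the blue bars, medians of the red points in blocks of 20 named probe sets, lie above 0 in 28 of 29 blocks.

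Protein-coding genes made up most of the members above background. Of the named probe sets above background, 156 were protein coding, with a median difference of 0.38, and 131 of them were higher in the knockdown arrays. The 19 pseudogenes above background had a median of 0.10, with 12 higher. The 4 long noncoding RNAs had 0.67 and the 4 transcribed pseudogenes 0.28. In the promoter windows, the median ratio of observed to expected CpG was 0.86 for 217 symbols brighter than 4.11, and 0.36 for 149 dimmer ones. Among the 217, the ratio and the difference had a Spearman's rho of 0.11, across genes of the same arrays. The 40 of them with the E-box letters had a median difference of 0.21 and the 177 without had 0.26.

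Members are described next by role, and each list's share called is set against the 11.9% higher and 11.6% lower over all probe sets with 1 symbol. A listed name counts as measured only where it matched a probe set with 1 symbol. Names on probe sets with several symbols, such as MICU2, have values but do not count. Some listed names are older symbols of another listed gene, such as NUPL1 for NUP58, and do not count either. Those shares include dim probe sets. Above background they were 23.8% and 19.5% over all probe sets with 1 symbol, and 57.0% and 7.53% on chromosome 13. A list with mostly bright members is better set beside these. Median differences of the lists stand beside 0.35 over all named chromosome 13 members above background and 0.03 outside chromosomes 13 and 14. Among tumour suppressor, cell cycle and repair genes, most bright members were modestly higher and a few were much higher in knockdown cells. Of 24 listed genes 20 were measured and 19 lay above background, with a median difference of 0.28, below the 0.35 of all named members above background. Of the 20, 11 were called higher (55.0%, against 11.9%) and 1 lower (against 11.6%). RB1, which restrains entry into S phase, had levels of 14.08, 14.09 and 14.00 in SND1 knockdown arrays, against 13.62, 13.55 and 13.56 in vector control arrays, a difference of 0.47 ± 0.06 (SE) or 1.39-fold. All knockdown values of RB1 lay above all vector control values. CCNA1, the germline-enriched cyclin A, had 11.46, 11.61 and 11.54 in SND1 knockdown arrays, against 9.84, 9.61 and 9.64 in vector control arrays, 3.57-fold higher. RFC3, a subunit of the clamp loader that places PCNA on DNA, was 1.97-fold higher (0.98 ± 0.12). DIAPH3, a formin that nucleates actin filaments, was the member called lower, at 10.22, 10.09 and 10.10 in SND1 knockdown arrays and 10.98, 11.07 and 11.04 in vector control arrays.

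FOXO1, also listed among transcription factors, had 8.81, 8.86 and 9.10 in SND1 knockdown arrays, against 6.56, 5.91 and 6.28 in vector control arrays, a difference of 2.67 ± 0.17 (SE). The groups were far apart, and the fold was at least 6.25, since the vector control mean lay within the background range. Of 22 listed transcription and development factors 21 were measured and 13 lay above background, with a median of 0.55. Of the 21, 10 were called higher (47.6%, against 11.9%) and 2 lower (9.52%, against 11.6%: LMO7 and TBC1D4, neither a DNA-binding factor). SETDB2, a SET domain protein of the histone methyltransferase family, was 2.11-fold higher, and ZIC2, a zinc finger factor of neural development, 1.91-fold. KLF5, a zinc finger factor of epithelial proliferation, had 12.94, 12.98 and 12.84 in SND1 knockdown arrays, against 12.65, 12.58 and 12.56 in vector control arrays, 1.25-fold higher without overlap. TBC1D4, a GTPase activator that insulin signalling controls, differed by -0.92 within the background range.

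Signalling genes were mostly dim. Of 27 listed receptors, ligands and signalling proteins 24 were measured and only 8 lay above background, with a median of 0.19. Of the 24, 4 were called in each direction, or 16.7% against 11.9% and 11.6%. SPRY2, a feedback inhibitor of receptor tyrosine kinase signalling to ERK, had 8.28, 8.46 and 8.42 in SND1 knockdown arrays, against 6.79, 6.45 and 6.51 in vector control arrays, 3.49-fold higher. DCLK1, a doublecortin-like kinase that binds microtubules, had 7.71, 7.72 and 7.64 in SND1 knockdown arrays, against 5.31, 5.24 and 5.09 in vector control arrays, at least 2.65-fold higher. STK24 and DOCK9 were the other members called higher. IRS2, the adaptor of insulin and IGF receptors, lay lower, at 6.44, 6.76 and 6.24 in SND1 knockdown arrays and 7.16, 7.27 and 7.21 in vector control arrays, a 1.67-fold difference without overlap. GAS6 had 5.26, 5.18 and 5.23 in SND1 knockdown arrays, against 6.75, 6.80 and 7.0 in vector control arrays, at least 1.48-fold lower. STARD13 and TNFRSF19, within the background range, were the other members called lower. SMAD9, a receptor-regulated SMAD of BMP signalling, was 1.90-fold lower, at 6.41, 6.42 and 6.30 in SND1 knockdown arrays and 7.39, 7.21 and 7.29 in vector control arrays.

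Matrix, adhesion and junction genes were mostly dim, and the 5 bright ones, too few to speak for the role, were mostly lower in knockdown cells. Of 25 listed genes 24 were measured but only 5 lay above background, with a median difference of -0.44 and 1 above 0. These were COL4A1, COL4A2, LMO7, FNDC3A and CLYBL, and the median is the value of LMO7, which is also listed among transcription factors. Over all 24, 3 were called higher (12.5%, against 11.9%) and 8 lower (33.3%, against 11.6%). COL4A1 and COL4A2, neighbours that encode the main collagen chains of basement membranes and were named after their values were seen, both lay lower. COL4A1 had 8.97, 9.08 and 8.79 in SND1 knockdown arrays, against 9.48, 9.69 and 9.85 in vector control arrays. COL4A2 had 8.03, 8.04 and 7.92 in SND1 knockdown arrays, against 8.48, 8.61 and 8.77 in vector control arrays, and neither gene's groups overlapped. GPC6, a glypican that carries heparan sulfate at the cell surface, differed by -1.41, and PCDH9, a protocadherin, by 1.00, both within the background range. NBEA, a large anchoring protein that acts in membrane traffic, was at least 1.13-fold lower. CLYBL, called higher in this list, is a mitochondrial lyase and no adhesion gene, at 7.45, 7.67 and 7.38 in SND1 knockdown arrays and 6.05, 6.07 and 6.09 in vector control arrays, at least 2.33-fold higher.

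Transporters held several of the largest differences. Of 23 listed transport, channel and lysosome genes 19 were measured and 10 lay above background, with a median of 0.73. Of the 19, 8 were called higher (42.1%, against 11.9%) and 4 lower (21.1%, against 11.6%). SLC15A1 had 7.10, 7.42 and 7.38 in SND1 knockdown arrays, against 4.41, 4.56 and 4.40 in vector control arrays, a difference of 2.84 ± 0.10 (SE) and at least 2.03-fold higher. SLC46A3, a lysosomal membrane transporter, had 8.16, 8.61 and 8.33 in SND1 knockdown arrays, against 5.92, 5.56 and 5.78 in vector control arrays, at least 4.25-fold higher. Both were at background in the vector control line and above it in the knockdown line. ATP11A, a phospholipid flippase, had 10.90, 10.71 and 10.74 in SND1 knockdown arrays, against 9.09, 9.10 and 9.16 in vector control arrays, 3.18-fold higher. ABCC4, an exporter of cyclic nucleotides and drugs, had 11.44, 11.46 and 11.54 in SND1 knockdown arrays, against 10.22, 10.12 and 10.30 in vector control arrays, 2.40-fold higher. NALCN, the sodium leak channel, lay at 6.03, 6.14 and 6.12 in SND1 knockdown arrays and 7.26, 7.32 and 7.19 in vector control arrays, at least 1.96-fold lower. KCTD12, KCTD4 and TRPC4 were the other members called lower.

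Genes of protein and RNA handling were mostly higher in knockdown cells. Of 26 listed genes for protein folding, glycosylation, ubiquitin and proteolysis 22 were measured, and all 20 above background were higher in the knockdown arrays, with a median of 0.46. Of the 22, 15 were called higher (68.2%, against 11.9%) and 0 lower (against 11.6%). Of all named chromosome 13 members above background, 57.0% were called higher. DNAJC3 had 12.01, 12.09 and 12.05 in SND1 knockdown arrays, against 10.75, 10.68 and 10.63 in vector control arrays, 2.57-fold higher. DNAJC15, a mitochondrial J protein of the protein import machinery, had 15.21, 15.28 and 15.24 in SND1 knockdown arrays, against 13.95, 13.98 and 13.80 in vector control arrays, 2.52-fold higher. Both J proteins lay far from the background range. UBAC2, a ubiquitin-associated protein of the endoplasmic reticulum, was 1.69-fold higher, and the deubiquitinase USP12 1.64-fold.

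Of 26 listed genes of RNA synthesis, processing and translation 23 were measured and 22 lay above background, with a median of 0.43 and 20 above 0. Of the 23, 17 were called higher (73.9%, against 11.9%, and 57.0% of named chromosome 13 members above background) and 0 lower (against 11.6%). GTF2F2, a subunit of the general transcription factor TFIIF, was 1.91-fold higher, and INTS6, a subunit of the Integrator complex, 1.75-fold. ARGLU1, a splicing-associated protein, was 1.74-fold higher, and MTIF3, a mitochondrial translation initiation factor, 1.68-fold.

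The list of mitochondrial and metabolic genes also holds members that are no such enzymes, among them ELF1, SPART, ITM2B, COG3 and COG6. Of 24 listed 20 were measured and 15 lay above background, with a median of 0.50. Of the 20, 11 were called higher (55.0%, against 11.9%) and 0 lower (against 11.6%). PCCA, a subunit of propionyl-CoA carboxylase, had 8.92, 9.09 and 9.30 in SND1 knockdown arrays, against 7.83, 7.66 and 7.73 in vector control arrays, 2.57-fold higher. SPART, the spartin protein of lipid droplets and endosomes, had 10.36, 10.33 and 10.32 in SND1 knockdown arrays, against 9.19, 9.12 and 9.18 in vector control arrays, 2.26-fold higher. ELF1, an ETS transcription factor, was 2.03-fold higher, and CRYL1, a dehydrogenase of sugar acids, at least 1.69-fold. SUCLA2, a subunit of succinyl-CoA synthetase, had 2 probe sets that were both higher but by different amounts, at 0.43 and 1.16.

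The most distal list, built around the clotting factors of the end of the long arm, had 13 of 16 genes measured, 6 above background and a median of 0.47. Of the 13, 7 were called higher (53.8%, against 11.9%) and 0 lower (against 11.6%). The members that differed were not clotting factors. They included RASA3, a GTPase activator of Ras family proteins, 1.73-fold higher, TUBGCP3, a subunit of the gamma-tubulin complex, 1.70-fold, and PCID2, of the mRNA export machinery, 1.52-fold. GRTP1 differed by 0.61 within the background range.

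**Figure D4:**
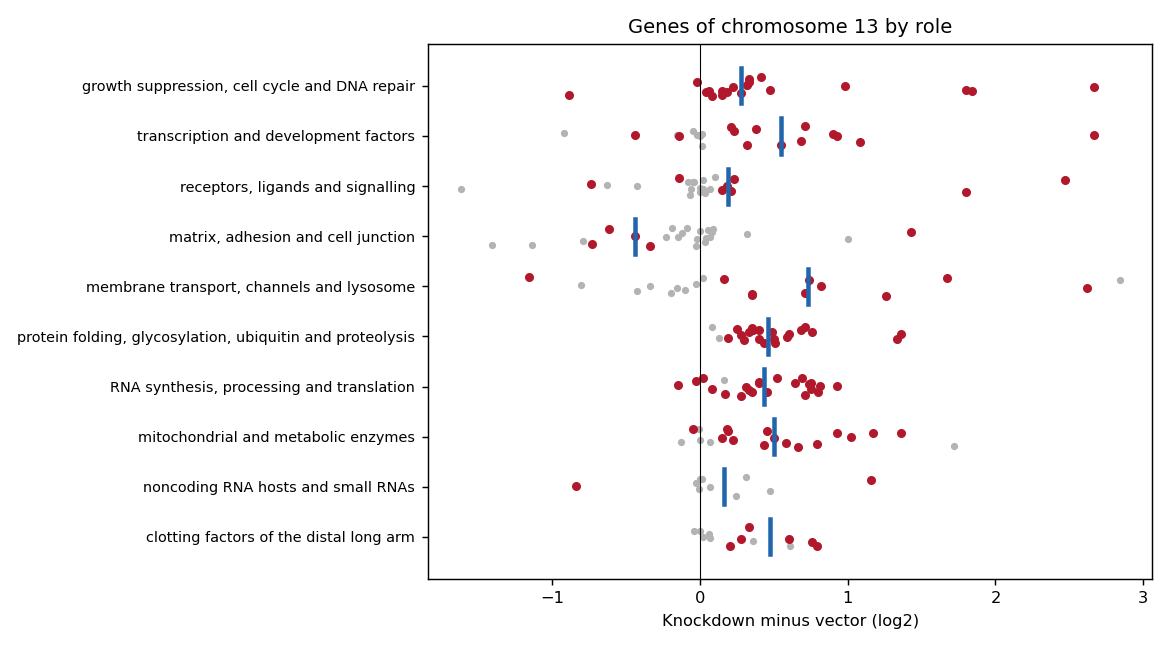
Difference of each measured gene (SND1 knockdown minus vector control, log2) in 10 role lists of chromosome 13 genes, with red points above background, grey points at or below it, and a blue bar at the median of the red points. The matrix, adhesion and junction list is centred at -0.44, over only 5 red points, and the other 9 lists at 0.16 to 0.73.

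Noncoding members were mostly dim. Of 23 listed noncoding RNA hosts and small RNAs 10 had a probe set of their own and 2 of these lay above background. Of the 10, 2 were called higher (against 11.9%) and 1 lower (against 11.6%). SNORA31, a box H/ACA small nucleolar RNA that guides pseudouridylation, had 9.16, 8.93 and 9.39 in SND1 knockdown arrays, against 7.94, 7.95 and 8.11 in vector control arrays, 2.24-fold higher. The MIR622 probe set had 11.45, 11.00 and 11.11 in SND1 knockdown arrays, against 12.22, 11.80 and 12.06 in vector control arrays, 1.79-fold lower, and the groups did not overlap. DLEU1 differed by 0.31 and MIR623 by 0.47, both within the background range, and the MIR623 groups overlapped.

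The hosts of the miRNAs printed above share their probe sets with the miRNAs' own symbols, so their values belong to no single gene. The probe set of DLEU2, MIR15A and MIR16-1 had 8.01, 7.88 and 8.20 in SND1 knockdown arrays, against 7.35, 7.31 and 7.26 in vector control arrays, 1.65-fold higher (0.72 ± 0.09 SE). All its knockdown values lay above all vector control values. The probe set of MIR17HG, which carries the seed groups of miR-17-5p, miR-18a-5p, miR-19a-3p and miR-92a-3p, had 5.81, 5.99 and 5.90 in SND1 knockdown arrays, against 5.70, 5.67 and 5.43 in vector control arrays. Its difference of 0.30 ± 0.10 (SE) lay within the background range.

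Antisense, intronic and divergent transcripts could be set beside their host genes in 71 cases, of which 42 differed in the same direction as the host. Where both were brighter than 4.11, 18 of 22 did. Of all named members brighter than 4.11, 221 of 326 were higher, so a shared direction is partly given beforehand. Differences near 0 were counted too, such as 0.01 for SUCLA2-AS1 and -0.02 for a GAS6-AS1 probe set. GAS6 entered the count more than once. SPART-AS1 was at least 1.36-fold higher, at 6.95, 6.61 and 6.62 in SND1 knockdown arrays and 5.34, 5.42 and 4.98 in vector control arrays, beside SPART itself. CLDN10-AS1 differed by 2.04 within the background range while CLDN10, a claudin of tight junctions, differed by 0.09. N4BP2L2-IT2, from within an intron of N4BP2L2, was 2.75-fold higher.

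Divergent pairs start from opposite strands of the same promoter region. GAS6-DT and GAS6 have promoter windows that overlap by 200 bases, and they differed by -1.70 and -1.62. GAS6-DT had 4.08, 4.50 and 4.45 in SND1 knockdown arrays, against 5.83, 6.03 and 6.26 in vector control arrays, all within the background range. DNAJC3-DT and DNAJC3 have windows that overlap by 287 bases, and they differed by 0.66 and 1.36, with DNAJC3-DT within the background range. RB1-DT and RB1, whose windows overlap by 0 bases, differed by 0.28 and 0.47, and RB1-DT lay within the background range. No source used here states which strand the probes read, and signal of a transcript and its antisense partner may be shared.

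Some single members were much lower in knockdown cells. FABP5P1, a processed pseudogene of the fatty acid binding protein gene FABP5, had 7.14, 6.99 and 7.74 in SND1 knockdown arrays, against 10.51, 10.65 and 10.58 in vector control arrays, 9.77-fold lower (-3.29 ± 0.19 SE). The parent gene FABP5, on another chromosome, had 5.88, 5.77 and 5.69 in SND1 knockdown arrays, against 7.0, 7.27 and 7.23 in vector control arrays. Since the copies are nearly identical, the signal of FABP5P1 cannot be assigned to it with certainty. LHFPL6, a tetraspan membrane protein, had 7.71, 7.62 and 7.61 in SND1 knockdown arrays, against 9.98, 9.98 and 9.81 in vector control arrays, 4.84-fold lower without overlap. SHISA2, which retains FGF and Wnt receptors in the endoplasmic reticulum, had 5.16, 4.67 and 4.69 in SND1 knockdown arrays, against 6.66, 6.80 and 6.86 in vector control arrays, at least 1.41-fold lower. SCEL, the cornified envelope protein sciellin, differed by -1.61 within the background range.

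Further large differences were found in less characterised members. NHLRC3 had 8.60, 8.88 and 8.81 in SND1 knockdown arrays, against 6.94, 6.99 and 6.98 in vector control arrays, 3.46-fold higher. CCDC169 was at least 1.18-fold higher and the pseudogene ANKRD20A19P at least 2.12-fold. For C1QTNF9B, named after its values were seen, 1 probe set differed by 1.42 and the other, within the background range, by 0.05.

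**Figure D5:**
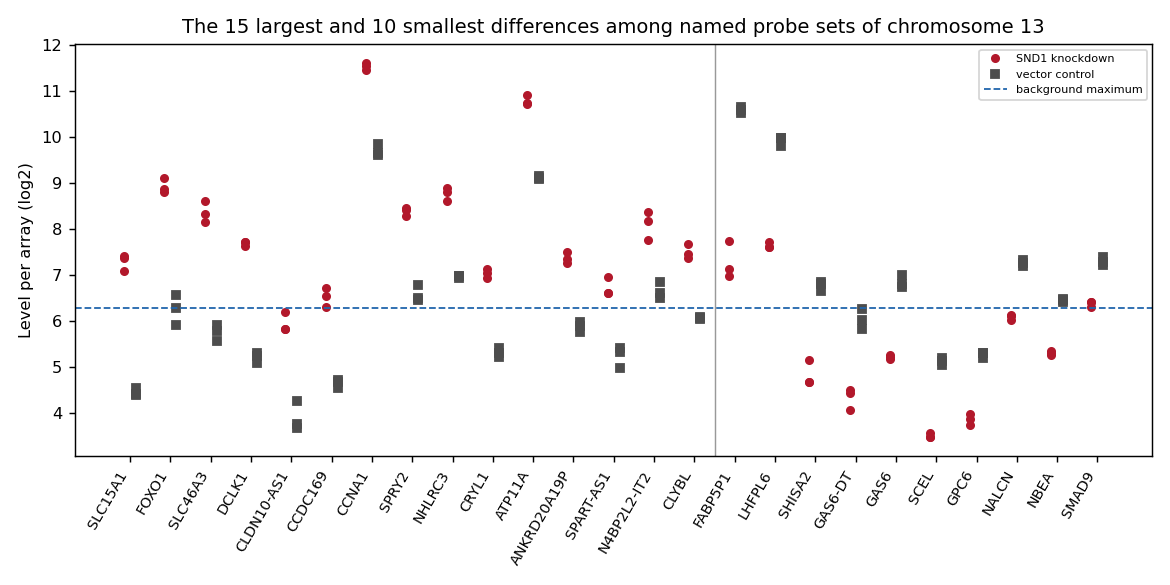
Log2 level on each array for the 15 named probe sets with the largest and the 10 with the smallest difference, each with SND1 knockdown (red circles) left of vector control (grey squares). The dashed line is the highest background control mean of 6.28, and many of the plotted genes have 1 or both groups at or below it.

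Unnamed probe sets reached differences as large as the named ones. TC13000960.hg.1 had 10.43, 10.44 and 10.70 in SND1 knockdown arrays, against 7.39, 7.43 and 7.54 in vector control arrays, 8.39-fold higher. TC13001247.hg.1 had 9.87, 9.79 and 9.85 in SND1 knockdown arrays, against 6.89, 7.21 and 7.15 in vector control arrays, 6.75-fold higher. At the other end, TC13001572.hg.1 had 7.87, 7.91 and 8.10 in SND1 knockdown arrays, against 11.04, 11.12 and 10.98 in vector control arrays, 8.49-fold lower. TC13001686.hg.1 was at least 1.50-fold lower. None of these 4 could be placed along the chromosome, and no gene is given for them. Among members above background, a log2 difference of at least 1 was found in 15 unnamed probe sets that were higher and 3 that were lower, and in 20 named ones that were higher and 3 that were lower.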

How the data were processed

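The 6 RNA samples of SKOV3 cells were each measured on 1 array. The deposited values are log2 levels per probe set, and the authors made them with RMA, per the submitters' processing notes, which give no version. RMA variant, array build and scan batches are not given in the sources used here. Values ran from 1.85 to 19.93 and array medians from 4.13 to 4.19, the normalization was kept, and fold sizes depend on this scale.

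Differences over 67528 transcript cluster probe sets came from limma 3.58.1 (R 4.3.3; lmFit, then eBayes) with Benjamini-Hochberg adjustment. Counts and medians were made in Python 3.11.15. Members, gene lists and background rule were chosen with earlier results of these data known. Symbols came from the platform annotation and were updated through RefSeq: 414 of 583 matched by Entrez identifier, 146 by symbol, 22 by synonym and 1 not at all, and 22 symbols changed. RefSeq gives GRCh38.p14 coordinates, and only gene order was used for the arrays.

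The genes named are SND1, the 15 largest and 10 smallest differences among named probe sets brighter than 4.11 without overlap, at most 4 genes per list by size of difference, RB1, KLF5, MIR17HG, DLEU2 and IRS2, and 4 unnamed probe sets. A further gene of that rule is not analysed here. COL4A1, COL4A2, SUCLA2, C1QTNF9B, DNAJC3-DT, RB1-DT and every gene that completes a count were named after their values were seen.

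The fit was tested on 5 simulations of the comparison over 67528 probe sets with 200 changed in each: 25.4% were recovered at a log2 size of 0.5, 73.1% at 1 and 94.8% at 2, and 3.43% of calls were false. The comparison itself had 5204 calls higher and 4421 lower, far more than were changed here. The adjustment depends on that share, so these rates need not hold for the data. The median size of 0.35 was not simulated. Deviations of arrays with the same replicate number correlated at 0.00, -0.04 and -0.07, so the numbers do not pair the arrays. The number of arrays limits the precision. Other settings tried were quantile normalization, centring, filters, a floor, an intensity trend, array weights, a replicate block and each array left out.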

Additional observations from a re-analysis of the deposited data

How the results depend on the processing

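Apart from the floor described here, the medians over all and over brighter probe sets kept their direction under every setting run. Of 137 recomputed values (these medians, calls, blocks over all named probe sets and SND1), 124 were marked as close to those reported. That mark was loose for calls: it covers 98 named probe sets called higher with the replicate block, against 127. Medians and blocks over probe sets above background were not rerun under these settings. The values not so marked came mainly from the dim members. With only probe sets brighter than 4.11 kept, the median difference was 0.18 in named and 0.16 in unnamed probe sets. With only those above background, the filter behind most medians above and chosen after seeing the data, it was 0.35 and 0.33. With all values raised to at least 6.28, the 4 medians became 0.0, since most members lie below that level, and the block median over all named probe sets, above 0 in 23 of 29 blocks as deposited, was above 0 in 2 (all alternatives for the blocks were added after seeing the data). That floor left 94 named probe sets called higher and 14 lower, and 38 unnamed ones called higher and 7 lower. Over all probe sets it left 2557 called higher and 2018 lower. Leaving out 1 array at a time gave medians of 0.04 to 0.07 in named, 0.02 to 0.05 in unnamed, 0.17 to 0.19 in brighter named and 0.14 to 0.20 in brighter unnamed probe sets. Without SND1 knockdown array 2 the brighter unnamed median was 0.20. With 1 array left out, calls ran from 102 to 119 higher and 28 to 36 lower in named, and 72 to 96 higher and 14 to 28 lower in unnamed probe sets, and such blocks above 0 from 20 to 25. Over all probe sets, calls with 1 array left out ran from 3588 to 4650 higher and 3165 to 4232 lower. The SND1 difference ran from -2.96 to -2.81. With the replicate number as a block, a pairing that the arrays did not show, the calls were 98 higher and 29 lower in named and 90 higher and 15 lower in unnamed probe sets, and 3769 and 3314 over all probe sets, against 5204 and 4421. No value changed direction. The background range limits what can be said of most members, and 386 of 583 named ones had both groups within it.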

Other observations

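A further 16 probe sets of chromosome 13, of which 12 measure single exons and 4 measure exon junctions, lie outside the transcript clusters. Their mean levels in the knockdown arrays ran from 11.86 to 17.66, above the background range. Their differences (SND1 knockdown minus vector control, log2) ran from -0.25 to 0.12, and 8 of the 16 were above 0. The offset of the bright transcript clusters was thus not seen in them. Several carry neighbouring identifiers and may come from few transcripts, so they cannot speak for the chromosome.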
